A study of Oryza sativa with 2 samples.

Results

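The genes described here are the calcium signalling genes among the genes with a binding peak of OsbHLH002, a basic helix-loop-helix transcription factor of rice. They were chosen by the words of their annotation alone: CAMK, calmodulin, EF hand or calcium, and not receptor. The rule found 160 of the 14709 genes in the deposited list, no pair of them on the same peak, on all 12 chromosomes. The study asked where OsbHLH002 binds the rice genome. It set 1 library of chromatin pulled down by an anti-FLAG antibody (the IP) against 1 input library of sheared chromatin, both from transgenic plants of the genotype Osbhlh002-1 gOsbHLH002-3FLAG, in which the Osbhlh002-1 mutant carries a genomic copy of the gene with a FLAG tag. Every plant sampled therefore carried both the mutation and the tagged copy, and no library from untagged plants was used here. The sources used here give neither the tissue nor the age of the plants, nor how many plants or transgenic lines stand behind a library. Because the list holds only genes with a peak near their start, having a peak is part of how these genes were found, and calcium genes without one were not analysed here. With a single IP there was no replicate. No test between conditions was possible, and the values below describe this library.

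Calcium ions act as a messenger in plant cells. Channels let calcium into the cytosol, and pumps and exchangers remove it. The signal is read by proteins with EF hands, the helix-loop-helix folds that hold a calcium ion: calmodulin, calmodulin-like proteins, calcineurin B-like proteins and calcium-dependent protein kinases. These act on kinases, on enzymes and on calmodulin-binding transcription factors. Cold is a well-known trigger of such signals, and in Arabidopsis the calmodulin-binding transcription activators and the relative of OsbHLH002 named ICE1 both switch on the CBF cold genes.

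As a group the calcium genes had peaks of moderate strength. The fold, by which the authors' peak caller found the IP raised over its local background, had a median of 3.49 at the 160 calcium genes (quartiles 2.66 and 4.70), against 3.13 over all genes in the list (quartiles 2.57 and 4.11). It ran from 1.72 to 11.5 at the calcium genes, while the highest fold in the list was 141. Of the calcium genes, 31 (19.4%) had a fold of 5 or more, beside 14.0% of all genes. A fold of 10 or more was found at 3 of them (1.88%), beside 1.31% of all genes. A false discovery rate (q) of 0.05 or less was given for 149 calcium genes (93.1%), beside 90.1% of all genes. At a q of 0.01 or less these were 132 calcium genes (82.5%) and 77.3% of all genes. These differences from the list at large were not tested. The summits held 10 to 96 IP fragments, with a median of 22.5, over a local background with a median of 5.41 fragments. Over all genes the medians were 20 fragments and a background of 5.19. The fragment counts were recovered from the deposited fold and p, and the intervals given with them are 95% exact Poisson intervals, which cover counting error only.

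By their descriptions the genes fell into 7 roles: 22 calmodulins and calmodulin-related sensors, 24 EF hand proteins, 37 calmodulin-binding proteins, 31 CAMK-like kinases, 26 kinases of the SNF1 type, 13 calcium transport proteins and 7 others. The label of calcium signalling suits these roles unequally. Both kinase roles carry the CAMK words as the name of a kinase family. Among the CAMK-like kinases, 2 are labelled Aur_like and 2 ULKh, and no label of this role names an EF hand. In plants the SNF1 type includes the kinases that calcineurin B-like proteins regulate, but also kinases with no known calcium sensor. Median folds were highest for transport (3.90) and for the calmodulin group (3.70), and lowest for EF hand proteins (3.19) and the others (3.13), but this order changed with the setting. With each peak counted once, at its nearest gene, EF hand proteins had 3.77 and the calmodulin group 3.71. Among peaks with a q of 0.05 or less, CAMK-like kinases had 3.92, transport genes 3.90, SNF1-type kinases 3.86 and the calmodulin group 3.70. The ranges of all 7 roles overlapped. The 10 genes of highest fold came from 5 of them: 3 CAMK-like kinases, 3 calmodulin-related sensors, 2 EF hand proteins, 1 calmodulin-binding protein and 1 calcium pump.

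**Figure D1:**
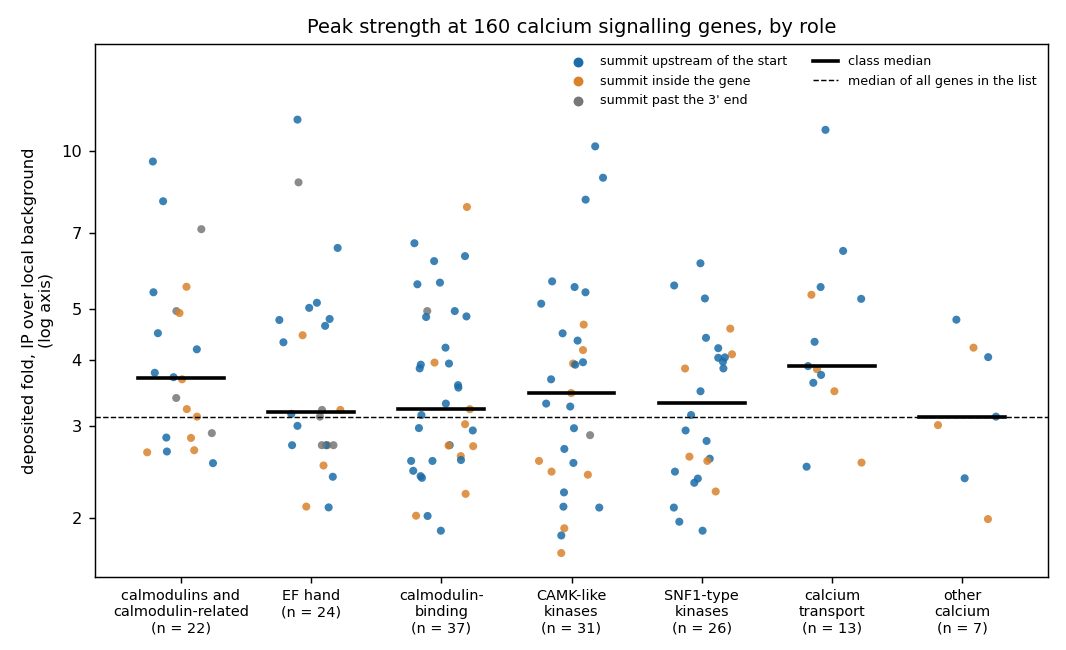
Deposited fold of IP over local background (log axis) for each of the 160 calcium signalling genes, grouped by role and coloured by where the summit lay. Thick bars are class medians, from 3.13 to 3.90, and the dashed line is the median of all genes in the list (3.13). All 7 roles span both sides of that line.

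Calmodulin and its relatives are the small sensor proteins of the pathway. All 22 of their peaks had a q of 0.05 or less, beside 90.1% of all genes. A fold of 5 or more was found at 5 (22.7%), beside 14.0% of all genes. These 5 were all OsCML genes, which encode calmodulin-related calcium sensors. OsCML18 (LOC_Os05g13580, chromosome 5, 7533633 to 7534664, minus strand) was the strongest of the group. Its fold was 9.56 (−log10 q 32.7), from 51 IP fragments (38.0 to 67.1) over a background of 4.44. Its peak, from 7533977 to 7535208, covered the start of the gene, with the summit 329 bp upstream. OsCML31 (LOC_Os01g72530, chromosome 1, 42073984 to 42074982, minus strand) had a fold of 8.03 and held 67 IP fragments (51.9 to 85.1) over a background of 7.47, with the summit 200 bp upstream. OsCML12 (LOC_Os01g41990) had a fold of 5.52 with the summit 24 bp inside the gene, and OsCML15 (LOC_Os05g31620) had 5.39 with the summit 310 bp upstream.

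OsCML31 and OsCML23 (LOC_Os01g72540, chromosome 1, 42078682 to 42079137, minus strand) are neighbours in the same direction, with starts 4155 bp apart, and both were among the 10 strongest calcium genes. The peak listed for OsCML23, from 42076522 to 42077743 with a fold of 7.11 and 43 IP fragments (31.1 to 57.9) over a background of 5.19, lay past its 3′ end. Its summit was 1980 bp downstream of the start of OsCML23 and 2175 bp upstream of the start of OsCML31. The space between these genes thus held the summits of both peaks, 1975 bp apart and both upstream of OsCML31, and the peak listed for OsCML23 did not reach that gene's own start.

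The genes for calmodulin itself were weaker than these. OsCam1-2 (LOC_Os07g48780) had a fold of 2.85 with 22 IP fragments over a background of 7.08, the summit lying 395 bp inside the gene. OsCam1-1 (LOC_Os03g20370) had a fold of 2.68 with 27 IP fragments over a background of 9.44. Its summit was 656 bp upstream of the start. Both are below the median fold of the list, and in both the background was above the list's median of 5.19. The 17 OsCML genes had a median fold of 3.71, from 2.55 at OsCML8 (LOC_Os10g25010) to 9.56 at OsCML18, and 13 of them were at or above the median of the list. Just under a fold of 5 were OsCML25 (LOC_Os11g01390) at 4.96, with the summit past the 3′ end of a gene of 450 bp, and OsCML4 (LOC_Os03g53200) at 4.92, with the summit 710 bp inside the gene. OsCML16 (LOC_Os01g04330) had 4.51 with the summit 96 bp upstream. OsCML21 (LOC_Os05g24780) and OsCML7 (LOC_Os08g02420) were near the middle of the family, at 3.71 and 3.68. OsCML5 (LOC_Os12g41110), OsCML14 (LOC_Os05g50180) and OsCML27 (LOC_Os03g21380) lay between 3.13 and 3.39. The weakest besides OsCML8 were OsCML29 (LOC_Os06g47640) at 2.91, OsCML30 (LOC_Os06g07560) at 2.85 and OsCML22 (LOC_Os04g41540) at 2.67. The 3 genes described as calmodulin-like protein 1 had folds of 4.20, 3.79 and 2.70.

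EF hand proteins share the calcium-holding fold but have no further role in their descriptions. The strongest peak of all calcium genes was at one of them, LOC_Os09g24580 (chromosome 9, 14635600 to 14636121, minus strand). Its fold was 11.5 (−log10 q 66.3). It held 95 IP fragments (76.9 to 116) over a background of 7.36, and by fold it ranked 150 of the 14709 genes. The gene is 522 bp long, and the peak, from 14635683 to 14636988, covered most of it, with the summit 501 bp upstream. LOC_Os07g43800 had a fold of 8.73, with 47 IP fragments (34.5 to 62.5) over a background of 4.50. Its peak was 2912 bp wide and ran over the whole gene of 943 bp, the summit lying past the 3′ end. LOC_Os06g46950 had a fold of 6.55 with the summit 1601 bp upstream, and LOC_Os06g40720 had 5.15 with the summit 720 bp upstream. The last of the 5 EF hand genes at a fold of 5 or more was LOC_Os02g14980, described as a calcium-binding EF hand protein, at 5.03. These 5 made up 20.8% of the role, beside 14.0% of all genes.

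The EF hand genes below a fold of 5 ranged from 2.10 to 4.79. LOC_Os04g42430 had a fold of 2.10 and was the one EF hand gene with a q above 0.05. Of the 24, 10 had a fold under the list's median, and 10 shared their peak with another gene (41.7%, beside 29.6% of all genes). A run of 3 neighbouring EF hand genes on chromosome 9 had unequal folds. LOC_Os09g31025, the middle one, had a fold of 4.77, with a summit at 122 bp upstream, while LOC_Os09g31000 and LOC_Os09g31040 to either side, with starts 4538 and 4717 bp away, both had 2.76. The IP fragments were 25 at the middle gene and 14 at each of the others, and the counting intervals of all 3 overlapped. Such overlap is no test of a difference, and none was run. The peaks of LOC_Os09g31000 and LOC_Os09g31040 were each shared with genes outside the rule. The run was set by starts within 20 kb of each other. Just beyond that distance lay the EF hand genes LOC_Os09g30490 and LOC_Os09g30506, with folds of 4.33 and 2.76.

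The calmodulin-binding proteins were the largest role, with 37 genes and a median fold of 3.23. LOC_Os01g38980, described as a calmodulin-binding protein (chromosome 1, 21900050 to 21903309, minus strand), led them. Its fold was 7.83 (−log10 q 36.0), from 67 IP fragments (51.9 to 85.1) over a background of 7.68. Its peak of 560 bp was narrow for its height, and the summit lay 8 bp inside the gene. IQ motif proteins, in which a short helix binds calmodulin, supplied 14 genes. Of these, 4 had a fold of 5 or more (28.6%, beside 14.0% of all genes). The strongest of them by fold was LOC_Os04g48160, at 6.68. That peak lay far from the gene, with the summit 2337 bp upstream. LOC_Os05g46350 had a fold of 6.31 with 53 IP fragments (39.7 to 69.3), and its summit was 188 bp upstream. LOC_Os02g01520 (5.62) and LOC_Os11g31060 (5.58) had summits 95 and 669 bp upstream. The protein of LOC_Os11g31060 has a BAG domain beside the IQ motif. Neighbouring calmodulin-binding protein genes on chromosome 11, LOC_Os11g44680 and LOC_Os11g44700, had folds of 3.86 and 3.31 from 20 and 17 IP fragments. On the same chromosome LOC_Os11g44310 had 2.75, and LOC_Os11g44630 had 2.02 from 10 IP fragments, the fewest at any calcium gene, with a q above 0.05. The one other calmodulin-binding gene with a q above 0.05 was LOC_Os06g06160, an IQ motif gene with a fold of 1.90.

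The list held 4 BTBZ genes, for proteins that join a BTB domain, a TAZ zinc finger and a calmodulin-binding domain. All 4 had the summit upstream of the start, beside 63.2% of all genes. BTBZ2 (LOC_Os01g68020) had a fold of 6.18 with 46 IP fragments (33.7 to 61.4) over a background of 6.61, BTBZ1 (LOC_Os01g66890) had 4.84, BTBZ4 (LOC_Os04g40630) 2.97 and BTBZ3 (LOC_Os02g38320) 2.57. The highest fold of this small family was 2.40 times the lowest.

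The calmodulin-binding transcription activators, whose Arabidopsis relatives act on CBF genes, had low folds. Their median IP count was not low: it was 23 fragments, over a median background of 6.61. Over all genes these medians were 20 and 5.19. All 5 had a q of 0.05 or less, as did 90.1% of all genes. Their median fold was 2.63, and 4 of the 5 were below the median of the list. The exception was LOC_Os01g69910, at 4.96, whose summit lay 2744 bp upstream of the start. The others were LOC_Os04g31900 at 3.02, LOC_Os07g30774 at 2.63, LOC_Os10g22950 at 2.41 and LOC_Os03g09100 at 2.02. For LOC_Os10g22950 the listed peak was not the strongest one near its start. Another peak, listed at the neighbouring gene LOC_Os10g22940, had its summit 607 bp upstream of the activator's start, with a fold of 6.64 and 37 IP fragments. That summit was 962 bp upstream of the start of LOC_Os10g22940, so the activator's start was the nearer.

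The CAMK-like kinases, a group that in plants includes the calcium-dependent protein kinases with EF hands of their own, ranged in fold from 1.72 to 10.2. Their labels do not tell which genes encode kinases with EF hands. Of 31 genes, 7 had a fold of 5 or more (22.6%, beside 14.0% of all genes). The q was 0.05 or less at 27 of them (87.1%, beside 90.1% of all genes) and above 0.05 at 4. CAMK_CAMK_like.5 (LOC_Os05g50810, chromosome 5, 29140430 to 29144552, minus strand) had a fold of 10.2 (−log10 q 61.9). It held 96 IP fragments (77.8 to 117), the most at any calcium gene, over a background of 8.50, and its summit lay 136 bp upstream of the start. CAMK_CAMK_like.27 (LOC_Os04g49510, chromosome 4, 29531223 to 29536492, plus strand) had a fold of 8.90 from 58 IP fragments (44.0 to 75.0) over a background of 5.63. Its peak ran from 29529860 to 29531732, with the summit 156 bp upstream. In both kinases the summit was thus close to the start. That the IP count stood far above its local background follows from their choice by a high fold. CAMK_CAMK_like.41 had 8.09. CAMK_CAMK_like.11 (LOC_Os01g64970) followed with a fold of 5.65, its summit at 253 bp upstream in a peak of only 252 bp. The other 3 kinases at a fold of 5 or more were CAMK_CAMK_like_ULKh_APGy.1 (LOC_Os03g02980) at 5.52, CAMK_CAMK_like.30 (LOC_Os06g50030) at 5.39 and CAMK_CAMK_like.9 (LOC_Os01g43410) at 5.13, with summits 760, 372 and 259 bp upstream. All 7 strong peaks of this role were thus upstream of the start, beside 77.4% of all genes with a fold of 5 or more. CAMK_CAMK_like.2 (LOC_Os03g57450), at 4.68, differed in shape: its peak was 2977 bp wide, with the summit 386 bp inside the gene. CAMK_CAMK_like.34 (LOC_Os07g38120) had 48 IP fragments over a background of 10.7 in a peak of 241 bp, and a fold of 4.18.

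CAMK_CAMK_like.41 shared its peak with a calcium sensor gene outside the rule. The kinase gene (LOC_Os10g41490, chromosome 10, 22294733 to 22297700, minus strand) and LOC_Os10g41510, described as calcineurin B (22298890 to 22308687, plus strand), are read away from each other, with starts 1190 bp apart. A peak from 22297461 to 22299118 covered the space between them, with a fold of 8.09 (−log10 q 24.6). It held 43 IP fragments (31.1 to 57.9) over a background of 4.44. The summit was 1052 bp upstream of the kinase and 138 bp upstream of the calcineurin B gene, so it lay nearer to the calcineurin B gene, which does not meet the rule.

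At the other end, CAMK_CAMK_like.17 (LOC_Os03g03660) had the lowest fold of all calcium genes, 1.72, with 21 IP fragments over a background of 11.8 and a −log10 q of 0.730. The next was CAMK_CAMK_like.26 (LOC_Os04g47300), with a fold of 1.86 from 14 IP fragments over 7.08. Both peaks had a q above 0.05, as did those of CAMK_CAMK_like.33 (LOC_Os07g33110, fold 2.10) and CAMK_CAMK_like.7 (LOC_Os07g42940, fold 1.92). A low fold did not always mean few fragments. CAMK_CAMK_like.12 (LOC_Os02g03410), singled out after its values were seen, had 35 IP fragments, a count reached by 30 calcium genes, but over a background of 12.3, the highest at any calcium gene, which gave a fold of 2.71.

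The 26 SNF1-type kinases had a median fold of 3.32 and no gene among the 10 strongest. The highest was CAMK_KIN1/SNF1/Nim1_like.9 (LOC_Os01g18800), with a fold of 6.12 from 34 IP fragments (23.5 to 47.5) over a background of 4.72 and the summit 1576 bp upstream. CAMK_KIN1/SNF1/Nim1_like.33 (LOC_Os08g34240) had 5.55 with the summit 296 bp upstream. CAMK_KIN1/SNF1/Nim1_like_AMPKh.3 (LOC_Os05g45420) had 5.25 with the summit 277 bp upstream, and CAMK_KIN1/SNF1/Nim1_like.4 (LOC_Os11g02240) had 4.60 with the summit 6 bp inside the gene. CAMK_KIN1/SNF1/Nim1_like_AMPKh.4 (LOC_Os08g37800) had a fold of 4.22 but the most IP fragments of the role, 51, over a background of 11.3. Its relatives by label had folds of 5.25 at AMPKh.3 and 1.97 at AMPKh.2 (LOC_Os03g17980). Their IP fragments were 29 (19.4 to 41.6) and 14 (7.65 to 23.5), with overlapping intervals, and the difference was not tested. All 3 AMPKh genes had the summit upstream. The q was above 0.05 at AMPKh.2, at CAMK_KIN1/SNF1/Nim1_like.17 (LOC_Os03g43440, fold 2.10) and at CAMK_KIN1/SNF1/Nim1_like.26 (LOC_Os06g35160, fold 1.90). Of this role 20 genes (76.9%) had the summit upstream of the start, the highest share of any role, beside 63.2% of all genes. Next to each other on chromosome 7, CAMK_KIN1/SNF1/Nim1_like.31 (LOC_Os07g48100) and CAMK_KIN1/SNF1/Nim1_like.30 (LOC_Os07g48090) had folds of 4.11 and 2.34, with summits 32 bp inside and 22 bp upstream of their starts. On chromosome 1, CAMK_KIN1/SNF1/Nim1_like.7 (LOC_Os01g10870) had 3.86 and CAMK_KIN1/SNF1/Nim1_like.8 (LOC_Os01g10890) had 2.25. CAMK_KIN1/SNF1/Nim1_like.32 (LOC_Os07g48760), a neighbour of OsCam1-2, had 2.94. In each of these pairs of neighbours the counting intervals of the fragments overlapped, which is no test of a difference, and none was run.

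Calcium transport genes made up 13 of the list, with a median fold of 3.90, and 11 of them were at or above the median of all genes. All 13 had a q of 0.05 or less, beside 90.1% of all genes. A fold of 5 or more was found at 5 (38.5%), beside 14.0% of all genes. The calcium-transporting ATPases, the pumps that clear calcium from the cytosol, held the strongest peak. LOC_Os03g10640, of the plasma membrane type (chromosome 3, 5433906 to 5440327, plus strand), had a fold of 11.0 (−log10 q 46.4). It held 67 IP fragments (51.9 to 85.1) over a background of 5.19. Its peak, from 5430828 to 5434643, was the widest of all calcium genes at 3816 bp, and the summit lay 933 bp upstream. The other plasma membrane pumps were LOC_Os11g04460 at 5.33, LOC_Os02g08018 at 5.24, LOC_Os05g41580 at 2.55 and LOC_Os12g39660 at 2.51. The pump of the endoplasmic reticulum type, LOC_Os03g17310, had 4.34, its summit being 1026 bp upstream.

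The 6 sodium/calcium exchanger genes were alike in where the peak lay. All 6 summits were within 250 bp of the start, beside 35.8% of all genes, and 4 of them were upstream, beside 63.2%. All 6 folds were above the median of the list, where 50.8% of all genes were at or above it. LOC_Os03g45370 had a fold of 6.46 from 39 IP fragments (27.7 to 53.3) over a background of 5.19, with the summit 133 bp upstream. The other 5 lay between 3.49 (LOC_Os12g42910) and 3.90 (LOC_Os11g05070). Of the 5 pumps of the plasma membrane type, 1 had its summit within 250 bp. The difference between these small groups was not tested. The calcium channel gene LOC_Os01g48680, for a cation channel of the vacuole, had a fold of 5.52 with the summit 265 bp upstream. It shared this peak with a ribosomal protein gene, LOC_Os01g48690, read the other way, whose start was 985 bp from the summit.

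Of the 7 remaining genes none had a fold of 5 or more. LOC_Os04g41950, described as a calcium-binding mitochondrial protein, had 4.78 with the summit 132 bp upstream. LOC_Os05g45030, described as a calcium homeostasis regulator, had 4.23, and LOC_Os02g56310, described as a calcium-dependent protein kinase isoform, had 4.06 with the summit 1953 bp upstream. LOC_Os03g07600, a calcium-binding protein gene, had 3.13. LOC_Os07g39630, with the same description, had 1.99 and a q above 0.05, and LOC_Os05g30940, a vacuolar calcium binding protein gene, had 2.39.

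**Figure D2:**
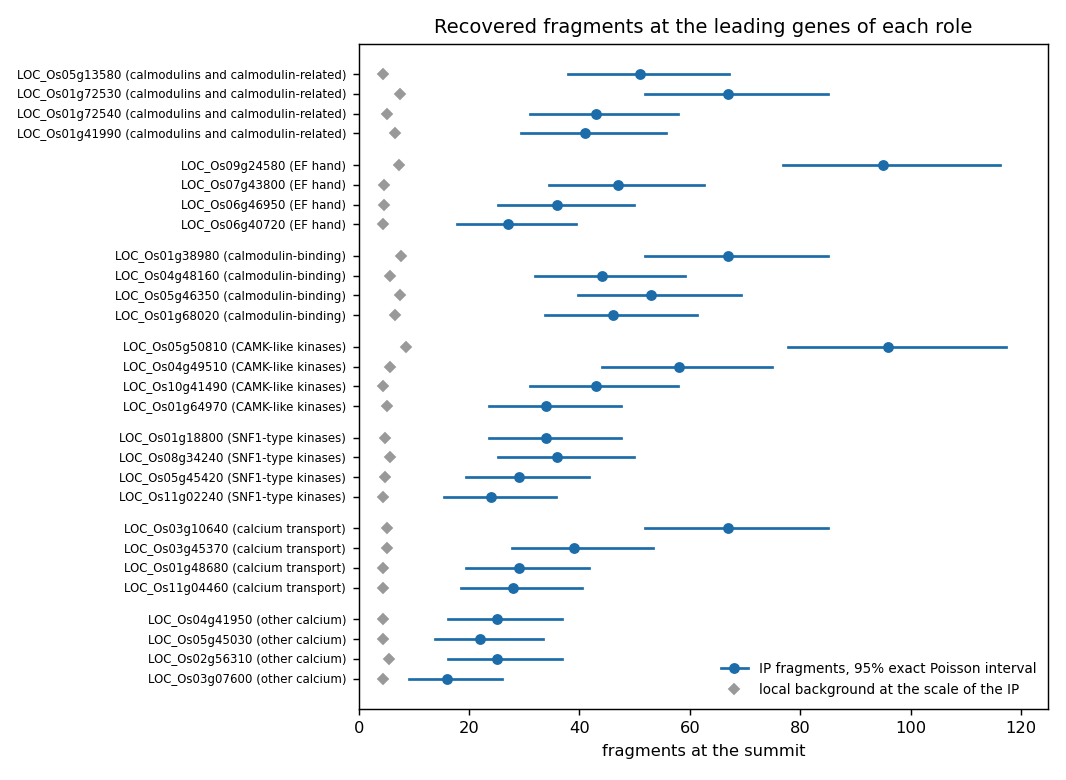
IP fragments at the summit (points, with 95% exact Poisson intervals) and local background at the scale of the IP (diamonds) for the 4 genes of highest fold in each role. The genes were chosen for a high fold among peaks called over that background, so intervals above the background at all 28 genes follow from the choice. The counts run from 16 at LOC_Os03g07600 to 96 at LOC_Os05g50810.

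The median position of the summit, with negative values upstream of the gene start, was -132.5 bp at the calcium genes, against -136 bp over all genes. Of the 160, 105 (65.6%) lay upstream, 44 (27.5%) inside the gene and 11 (6.88%) past the 3′ end. Over all genes in the list the shares were 63.2%, 27.1% and 9.77%. Within 250 bp of the start to either side lay 69 calcium genes (43.1%), beside 35.8% of all genes. Between 1001 and 2000 bp upstream lay 22 (13.8%), beside 18.4% of all genes. These differences were not tested. The gap at 250 bp was smaller when each peak was counted once, at its nearest gene, with shares of 45.0% of calcium genes and 41.2% of all, and smaller still among peaks on a single gene, with 40.8% and 39.0%.

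**Figure D3:**
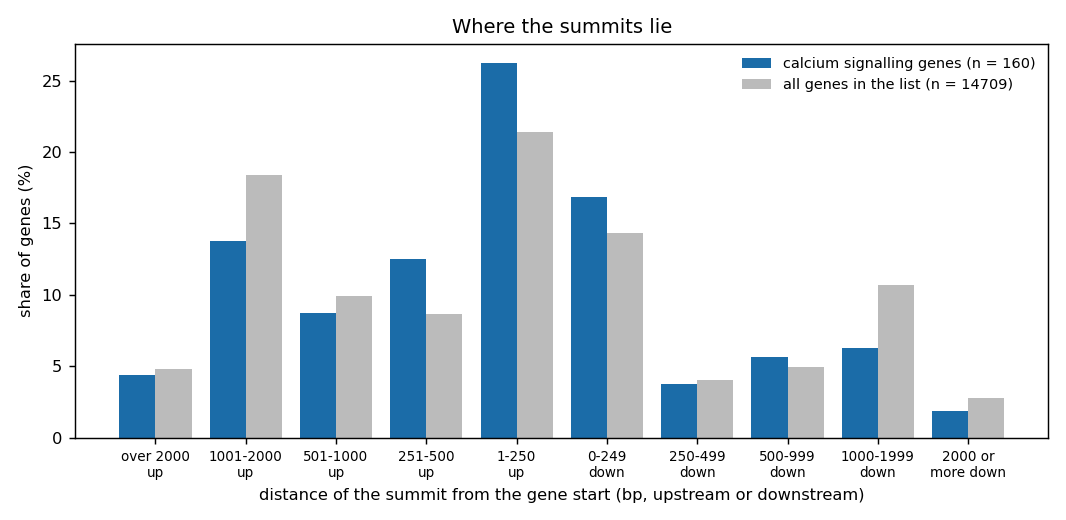
Share of genes (%) by distance of the summit from the gene start, for the 160 calcium signalling genes and for all 14709 genes in the list. The tallest bar of both is the stretch of 1 to 250 bp upstream, with 26.2% of calcium genes and 21.4% of all genes.

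The strong peaks were mostly upstream ones. Among the 31 calcium genes with a fold of 5 or more, 26 had the summit upstream, 3 inside the gene and 2 past the 3′ end. Over the list, 77.4% of such genes had the summit upstream. The median fold of the calcium genes was 3.86 for summits upstream and 3.02 for summits inside the gene, against 3.31 and 2.76 over all genes. Strong peaks were also wider, with a median of 1065 bp at a fold of 5 or more and 492 bp below it, where all genes had 843 and 415 bp. A peak of 2000 bp or more was found at 3 calcium genes (1.88%), beside 2.16% of all genes.

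The roles differed in the length of their genes and in where the summits lay. Calmodulin-related and EF hand genes are short, with median lengths of 1066 and 899.5 bp, and 9 of the 11 summits past a 3′ end belonged to them. The part of gene length in this was not tested, and the EF hand genes had 14 of 24 summits upstream (58.3%). Among the calmodulins and related sensors 10 of 22 summits were upstream, the lowest share of any role. The kinases, pumps and calmodulin-binding proteins have longer genes, with median lengths from 3454 to 5196 bp by role, and only 2 of their 107 summits were past the 3′ end.

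**Figure D4:**
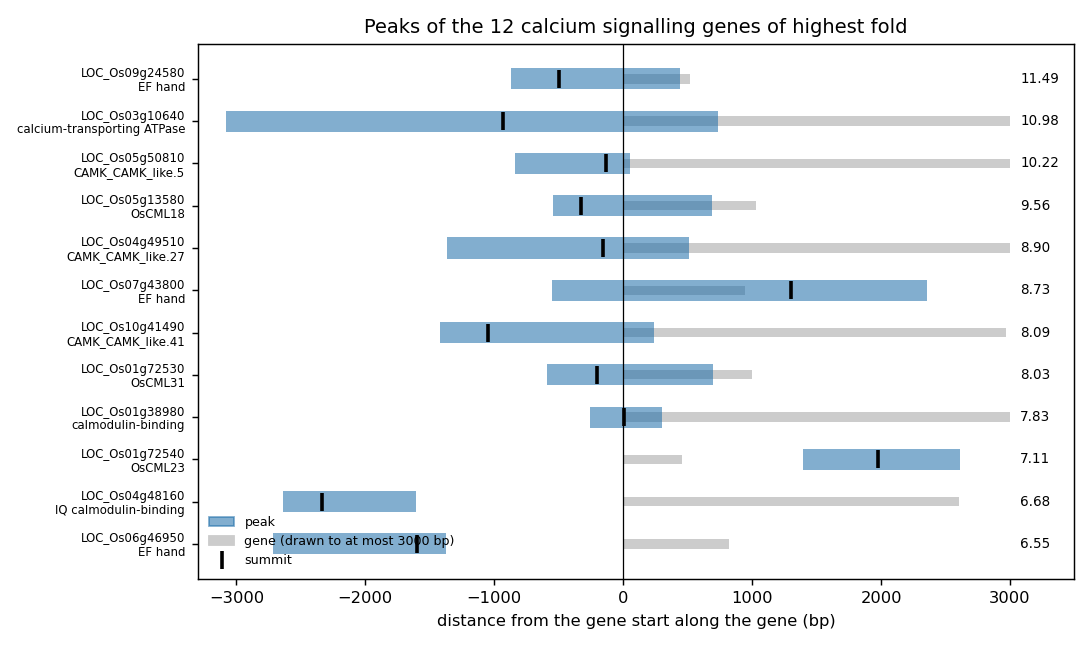
Peaks (blue) and summits (black ticks) at the 12 calcium signalling genes of highest fold, drawn by distance in bp from the gene start along the gene, with the gene in grey and the fold at the right. In 9 of the 12 the peak covers the gene start, and the peaks of OsCML23, LOC_Os04g48160 and LOC_Os06g46950 lie away from it.

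A peak between neighbouring genes cannot be given to one of them from these data. No peak was shared by a pair of calcium genes, but 35 calcium genes (21.9%) shared theirs with at least 1 other gene, beside 29.6% of all genes. Of the 37 pairs so formed, 24 were of genes read away from each other, and in 14 of these the summit lay between the starts. In 26 of the 35 genes the start of the calcium gene was the nearest to the summit. CAMK_CAMK_like.5 was one of them: its partner LOC_Os05g50815, described as an expressed protein, started 1960 bp from the summit. OsCML18 shared its peak with a retrotransposon gene whose start was 2762 bp away. In 7 calcium genes another listed peak overlapped the window around the start, and in 4 of these that peak had the higher fold.

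Other genes of the pathway that the rule leaves out were looked up by 11 words, and 57 were in the list. Their median fold was 3.13, as over all genes, and 7 had a fold of 5 or more, beside 14.0% of all genes. All 6 genes described as calcineurin B, the sensors that act on SNF1-type kinases, had the summit upstream, beside 63.2% of all genes. The one at the shared peak with CAMK_CAMK_like.41 had 8.09, and the others ran from 2.10 to 3.78. The calreticulin genes, for calcium-binding chaperones of the endoplasmic reticulum, had 7.17 (LOC_Os01g67054) and 4.23 (LOC_Os05g43170), with summits 280 and 177 bp upstream. Among 3 respiratory burst oxidase genes, for enzymes that make reactive oxygen and are activated by calcium, LOC_Os11g33120 had 6.23 with the summit 159 bp upstream. Of 9 cyclic nucleotide-gated channel genes, LOC_Os03g55100 was the highest with 5.88. The 7 glutamate receptor genes, for candidate calcium channels, reached 4.60 (LOC_Os09g31160) and the 4 annexin genes 4.96 (LOC_Os09g23160). Phospholipase C genes were low, the highest of 4 being LOC_Os04g59310 with 3.01. Among 19 genes of the C2 domain, a calcium-dependent membrane-binding fold, LOC_Os07g39620 led with 8.16. The DUF221 genes, a family of channel proteins, reached 3.94 (LOC_Os12g39320). The word exchanger added only LOC_Os07g37454, described as a urate anion exchanger and so not a calcium gene by its description, with 2.65.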

How the data were processed

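Chromatin of 1 IP and 1 input library was analysed, both grouped by their titles. Per the labels' protocols, fixation took 15 min in 1% formaldehyde, and sonication gave DNA of 300 to 500 bp. The submitters' processing notes name Bowtie2 (version 2.4.2), SAMtools, Picard and MACS2 (version 2.2.7.1). The sources used here do not give the genome build, the annotation release or the threshold of the calls. The authors deposited 1 list of IP peaks, joined to genes whose start lay within 2 kb. Per the file headers, its values are a fold (a linear ratio of the IP to its background), and p and q as −log10. The deposited score was not used.

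Coordinates are those of the list, with the first base of a chromosome as 1. The distance of a summit was taken from the gene start along the strand. Since the fold of the peak caller is (pileup + 1) / (background + 1) and its p a Poisson tail, both were solved for a whole-number pileup, which gave a single solution at all 160 calcium genes (the −log10 p had to match within 0.0001 times its value plus 0.0002). The method was tested on simulated peaks. The sources used here give no library totals, so precision rests on these counts. PCR copies are not separate molecules, so intervals cover counting error only.

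The members, roles and lists were chosen with earlier results of these data known. Genes named were the 4 of highest fold in each role, the 2 of lowest fold, members with starts within 20 kb of each other, and the highest of each other pathway word. The BTBZ, calmodulin and calmodulin-binding transcription activator genes and other genes named beside these were chosen after their values were seen. None of the identifiers was found in the reference table of 39387 genes, so genes carry the names of the list. Peaks with a stricter q, peaks counted once each, unshared peaks, narrower peaks and the members without SNF1-type kinases were tried as alternatives. Computation used Python 3.11.15, pandas 2.3.3, SciPy 1.17.1 and Matplotlib 3.10.9.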

Additional observations from a re-analysis of the deposited data

How the results depend on the processing

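Of 51 values recomputed under other settings, 50 stayed within the 95% binomial interval of the main value or, for counts of genes, within 1.5 times of it. The exception was the median fold of the calcium genes, which was 3.91 among peaks with a q of 0.01 or less, where 132 calcium genes were left. This setting removes the weakest peaks by construction, and it gave 3.49 over all genes in the list. Under the other settings the median lay between 3.47 and 3.68. The 50 values are no test of stability, since several settings could hardly move a value. The 31 calcium genes with a fold of 5 or more all passed both q filters, as such peaks have a small q. Fragments over background exceed the fold by construction, since the fold adds 1 to both. The intervals of the role medians are wide, since the roles held 7 to 37 genes each. All the binomial intervals are taken over the genes of 1 library, so they do not measure variation between libraries. No replicate could be left out, since there was 1 library of each kind. No paired analysis was possible because there was 1 IP and 1 input library and the values came from no test between samples. At this depth a peak near the threshold rests on as few as 10 IP fragments, and the choice of 1 peak for each gene in the deposited list was not examined.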

Other observations

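Of 2 genes described as CBL-interacting protein kinases, which the rule does not reach, LOC_Os02g10750 had a fold of 4.23 with the summit 1353 bp inside the gene, and LOC_Os11g05630 had 2.16. They were looked up after the data were seen. The calmodulin-like protein 1 genes near the ends of chromosomes 11 and 12 had peaks in like positions: LOC_Os11g04560 had a fold of 4.20 with the summit 105 bp upstream, and LOC_Os12g04360 had 3.79 with the summit 142 bp upstream.

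In 4 calcium genes the peak listed for the gene was weaker than another listed peak overlapping the window of 2 kb to either side of its start. Beside the transcription activator LOC_Os10g22950 these were LOC_Os02g03020, an EF hand gene with a fold of 2.11, LOC_Os03g17980, a kinase gene labelled CAMK_KIN1/SNF1/Nim1_like_AMPKh.2 with 1.97, and LOC_Os03g19720, an EF hand gene with 3.16. The other peaks had folds of 7.17, 4.15 and 4.42 in that order. On chromosome 1 the 24 calcium genes had a median fold of 4.48, beside 3.15 for all genes of that chromosome, and on chromosome 7 the 14 calcium genes had 2.74, beside 3.13. Among the 12 chromosomes they were picked as the highest and the lowest median of the calcium genes. These differences were not tested.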
